A study of Mus musculus with 11 samples.

Results

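Of 8 mouse genes of iron export, uptake and storage, 7 were measured, out of 12393 genes with a probe set naming them alone. The genes were Slc40a1, Tfrc, Slc11a2, Steap1, Steap2, Aco1, Ireb2 and Fth1, taken by exact gene symbol in the array annotation. They were read by 18 of the 22690 probe sets on the array, of which 3 were Affymetrix control probe sets for Tfrc. Steap2 was not analysed here. The genes were chosen by earlier results on these same arrays, among them the colony differences of Slc40a1 and Steap1, so their levels and differences are given as a description, with no test.

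Messenger RNA was measured on Affymetrix arrays in JB6 cells, a mouse epidermal line used to study the passage from attached to anchorage-independent growth, and 11 arrays fell into 4 groups. RT101 is a tumour variant of JB6 and received no treatment; it gave 3 arrays of colonies taken from soft agar on day 7 and 2 arrays of cells grown as a monolayer. The other line was the parental JB6 clone 41-5A, given basic fibroblast growth factor (bFGF) according to the labels, and is called bFGF-JB6 here; it gave 3 arrays of colonies taken on day 7 at 10 ng/ml bFGF and 3 arrays of a monolayer, for which no dose or time was stated. All 4 groups were kept in Eagle's minimal essential medium with fetal bovine serum, and each line is a single clone or variant. Only bFGF-JB6 was labelled as given bFGF, so line and bFGF cannot be told apart wherever RT101 is compared with bFGF-JB6. Differences between the lines below are meant in this sense. The comparison of each line's colonies with its monolayer served to find changes common to reversible, bFGF-driven growth in agar and the irreversible growth of RT101.

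Cells take up iron bound to transferrin through the transferrin receptor, reduce it with STEAP family enzymes and move it into the cytosol through the divalent metal transporter. Ferritin stores the surplus and ferroportin, the only known iron exporter of mammalian cells, lets it out. Iron regulatory proteins tie these steps together: when iron is scarce they bind iron-responsive elements in RNA, protect the receptor's message from decay and hold back translation of the ferritin and ferroportin messages. An array reads the amount of a message and not its translation.

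Signals are on a log2 scale, so a difference of 1 is a 2-fold change; each difference has a moderated standard error (SE), from a linear model of all 11 arrays. Array medians ran from 5.82 to 5.95 and lower quartiles from 3.78 to 3.91, and signals below the lower quartile lie at the bottom of the scale, where folds are compressed. Correlations between arrays were 0.989 to 0.998 within groups and 0.9345 to 0.983 between groups. The Gapdh control probe sets read higher at the 3' than at the 5' end on 2 arrays, by 0.35 on bFGF-JB6 colonies replicate 3 and by 0.19 on bFGF-JB6 monolayer replicate 1, against -0.08 to -0.01 on the other 9. Of 11 measured keratinocyte markers, 5 or 6 lay in the lower quartile in each group, among them the epithelial cadherin gene Cdh1, the epidermal regulator gene Trp63 and the desmosome genes Dsp and Perp; of 10 fibroblast markers, Thy1, Lum and Fap lay there.

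Slc40a1, which encodes the exporter ferroportin, was far higher in bFGF-JB6 colonies than in any other group. Its brightest probe set, 1417061_at, read 7.41, 7.19 and 7.75 in bFGF-JB6 colonies, against 3.88, 3.85 and 3.54 in bFGF-JB6 monolayer. The same probe set read 3.31, 3.12 and 3.20 in RT101 colonies and 3.17 and 2.90 in RT101 monolayer. All 3 bFGF-JB6 colony arrays thus stood above the other 8, while all RT101 arrays and 2 of the 3 bFGF-JB6 monolayer arrays lay in the lower quartile. The difference was 3.70 (SE 0.14) in bFGF-JB6, a 13.0-fold higher level in colonies, and 0.18 (SE 0.16) in RT101, where the groups overlapped. The second probe set, 1448566_at, read 7.30, 7.02 and 6.32 in bFGF-JB6 colonies against 3.28, 3.59 and 3.37 in bFGF-JB6 monolayer, 11.1-fold higher. In RT101 its difference was -0.08 (SE 0.23), again with overlap. RT101 colonies lay below bFGF-JB6 colonies 18.9-fold on 1417061_at and 13.8-fold on 1448566_at. In bulk RNA, fewer cells of a type and less RNA per cell cannot be told apart, for this gene and those that follow.

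Ferroportin is abundant in macrophages, so their markers are given beside it. The summed level of 13 macrophage markers (log2 of their added linear signals) was 9.78 to 9.86 in bFGF-JB6 colonies against 9.35 to 9.37 in bFGF-JB6 monolayer, and 8.56 to 8.65 in RT101 colonies against 8.39 on both RT101 monolayer arrays. Of the 13, 3 rose and 1 fell in bFGF-JB6 colonies (limma, adjusted p under 0.05), or 30.8% against 29.4% of all 12393 genes, of which 14.1% rose and 15.3% fell. Cd68, a lysosomal membrane gene, rose by 1.86 (SE 0.10, adjusted p = 1.04e-08) and Csf1r, the receptor for macrophage colony-stimulating factor, by 0.92 (SE 0.11, adjusted p = 2.89e-05). Lyz2 rose by 0.36 (SE 0.11, adjusted p = 0.023) and Mrc1 fell by 0.64 (SE 0.10, adjusted p = 0.000259). Cd14 read 8.565 to 8.738 in bFGF-JB6 colonies and 8.657 to 8.741 in bFGF-JB6 monolayer. Ptprc, Adgre1, Itgam, Fcgr1, Mrc1, Cd163, Aif1 and Tyrobp, 8 of the 13, lay in the lower quartile in bFGF-JB6 colonies. In the other groups 7 lay there in bFGF-JB6 monolayer, 8 in RT101 colonies and 6 in RT101 monolayer. The summed level of 6 erythroid markers was 7.09 to 7.34 in bFGF-JB6 colonies against 7.04 to 7.25 in bFGF-JB6 monolayer, and that of 4 hepatocyte markers 6.62 to 6.74 in colonies against 6.53 to 6.68 in monolayer; the part of other cell types in the Slc40a1 difference was not tested.

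Steap1 belongs to the STEAP family of haem-binding membrane proteins; human STEAP1 lacks the NADPH-binding part with which its relatives reduce iron. It was lower in colonies of both lines. In bFGF-JB6 colonies 1451532_s_at, a probe set that may be shared with other transcripts, read 8.07, 7.91 and 8.22, against 9.38, 9.31 and 9.20 in bFGF-JB6 monolayer. In RT101 colonies it read 8.86, 8.88 and 8.77, against 10.88 and 10.85 in RT101 monolayer. Colony and monolayer arrays did not overlap in either line. The difference was -1.23 (SE 0.09) in bFGF-JB6, a 2.35-fold lower level in colonies, and -2.03 (SE 0.10) in RT101, a 4.08-fold lower level. The other probe set, 1424938_at, gave -1.38 (SE 0.09) in bFGF-JB6 and -2.14 (SE 0.10) in RT101.

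The order of Steap1 levels was RT101 monolayer, bFGF-JB6 monolayer, RT101 colonies and bFGF-JB6 colonies, and no neighbours in that order overlapped. RT101 exceeded bFGF-JB6 by 1.57 (SE 0.10) in monolayer and by 0.77 (SE 0.09) in colonies. Its promoter is shown because Steap1 had the largest colony difference common to both lines among these genes; the capitals mark its only motif match, a GC box (GGGCGG). The window is the 250 bases before the RefSeq start, on build GRCm38.p6 at chr5:5749318-5749567, minus strand.
Steap1: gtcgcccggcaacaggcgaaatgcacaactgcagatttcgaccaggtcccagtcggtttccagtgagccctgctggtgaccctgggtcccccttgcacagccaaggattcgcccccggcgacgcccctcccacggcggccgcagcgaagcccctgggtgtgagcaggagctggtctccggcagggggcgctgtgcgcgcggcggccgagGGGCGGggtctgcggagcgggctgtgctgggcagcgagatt
Of these bases 70.8% were G or C, against a median of 52.4% over all promoters. Searched on both strands were the antioxidant response element TGACNNNGC, the hypoxia response core ACGTG, the E-box CACGTG (which contains that core), the GC box, the CCAAT box CCAAT and the TATA box TATAA. Among 32851 mouse promoters of the same length, 10.2% held the antioxidant response element, 16.6% the hypoxia response core, 6.02% the E-box, 32.7% a GC box, 33.8% a CCAAT box and 22.8% a TATA box. Steap2, the family member not analysed here, is a protein-coding neighbour of Steap1 in that annotation; Gm46900 is the other. In all, 6 of the 8 genes had promoter entries, 10 in number.

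**Figure D1:**
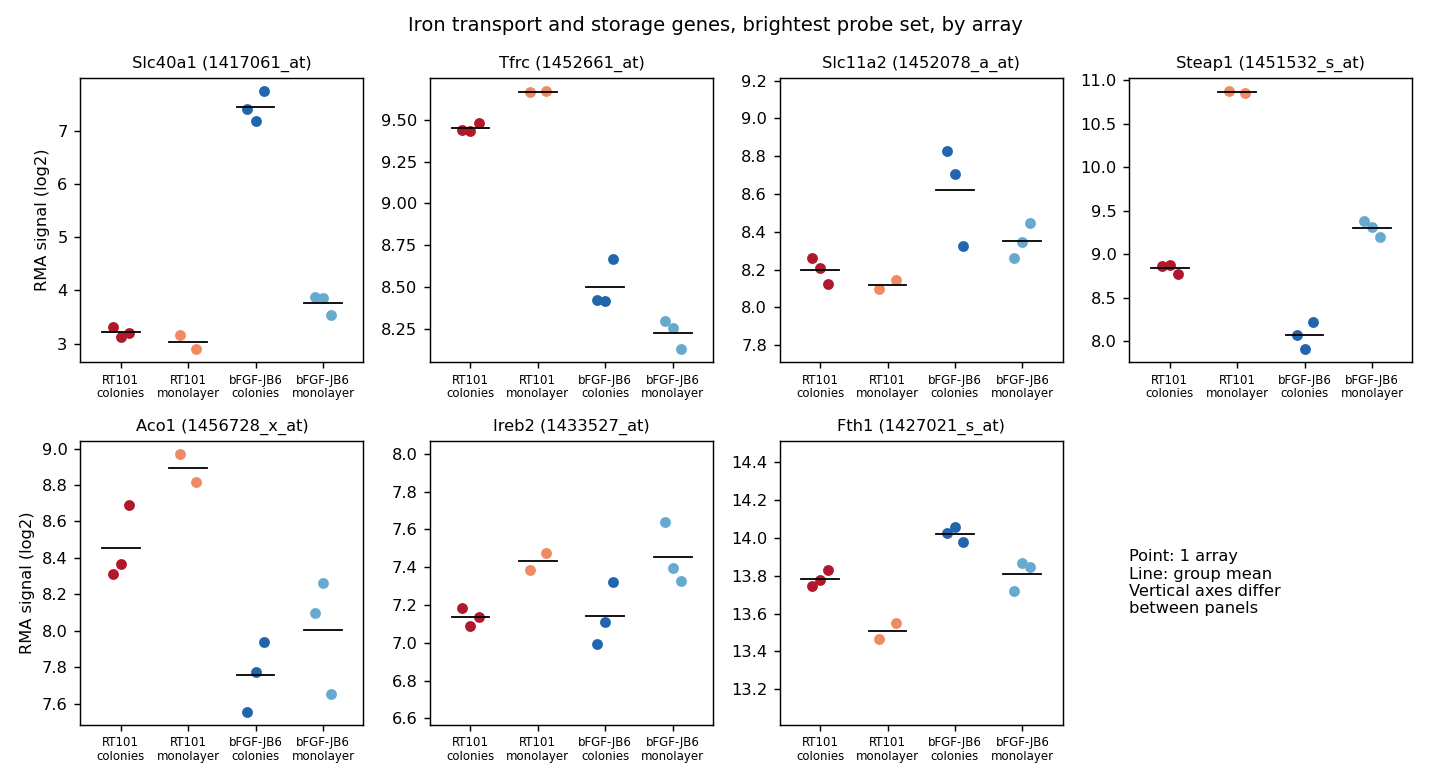
RMA signal (log2, vertical axis, scaled separately in each panel) of the brightest probe set of each of the 7 genes, in the 4 groups along the horizontal axis; each point is 1 array and each line a group mean. Slc40a1 stands at 7.19 to 7.75 in bFGF-JB6 colonies and at 2.90 to 3.88 in all other groups, while Steap1 and Ireb2 sit lower in colonies of both lines and Fth1 sits higher.

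Tfrc encodes the transferrin receptor, the main entry of iron into dividing cells. Its level separated RT101 from bFGF-JB6 more than colonies from monolayer. 1452661_at, the brightest probe set, read 9.44, 9.43 and 9.48 in RT101 colonies and 9.66 and 9.67 in RT101 monolayer. It read 8.42, 8.42 and 8.66 in bFGF-JB6 colonies and 8.30, 8.25 and 8.13 in bFGF-JB6 monolayer. Every RT101 array lay above every bFGF-JB6 array, and the colony difference ran opposite ways: -0.22 (SE 0.10) in RT101 and 0.28 (SE 0.09) in bFGF-JB6, with no overlap in either.

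The 5 other Tfrc probe sets, 3 of them controls placed along the transcript, showed the same difference between lines. RT101 exceeded bFGF-JB6 without overlap on all 6 probe sets, by 1.36 to 1.71 in monolayer and by 0.95 to 1.64 in colonies. Colony and monolayer arrays, in contrast, overlapped on all 5 others in both lines. On these 5, bFGF-JB6 colonies replicate 3 and bFGF-JB6 monolayer replicate 1, the arrays with the raised Gapdh signal, were the lowest of their groups. 1422967_a_at, for example, read 4.35 on that colony array and 4.20 on that monolayer array, against 5.83 and 5.30 on the other bFGF-JB6 colony arrays and 5.65 and 5.75 on the other bFGF-JB6 monolayer arrays. Without both arrays the bFGF-JB6 colony difference was 0.23 on 1452661_at and -0.14 to 0.20 on the others.

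Tfrc and Fth1 are the textbook pair that iron regulatory proteins move in opposite ways after transcription, and both of their promoters are printed here for that contrast; capitals mark motif matches. The Tfrc window, 250 bases before the earlier of its RefSeq starts, lies at chr16:32608646-32608895, plus strand, and the Fth1 window, before the downstream of its starts, at chr19:9982396-9982645, plus strand, both on GRCm38.p6.
Tfrc: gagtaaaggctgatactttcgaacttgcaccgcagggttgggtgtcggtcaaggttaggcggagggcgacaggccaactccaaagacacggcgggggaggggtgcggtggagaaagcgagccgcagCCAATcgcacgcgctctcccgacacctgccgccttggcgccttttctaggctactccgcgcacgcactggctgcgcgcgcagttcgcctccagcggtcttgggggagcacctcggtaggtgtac
Fth1: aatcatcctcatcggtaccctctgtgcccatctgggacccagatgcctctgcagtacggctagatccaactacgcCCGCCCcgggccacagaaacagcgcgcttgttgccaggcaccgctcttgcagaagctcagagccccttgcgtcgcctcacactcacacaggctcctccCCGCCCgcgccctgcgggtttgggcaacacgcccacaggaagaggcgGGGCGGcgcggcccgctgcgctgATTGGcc
The Tfrc window held 1 CCAAT box and 64.8% G or C, and the Fth1 window held 3 GC boxes, 1 CCAAT box, read from the other strand as ATTGG, and 66.8% G or C. The window before the later Tfrc start, which overlaps the printed one, held 1 hypoxia response core, 1 GC box, 1 TATA box and 68.0% G or C. The window before the other Fth1 start held 1 TATA box and 34.8% G or C. No value here says which start is used, and 1 window of each gene is printed. A match describes these letters and shows no binding.

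**Figure D2:**
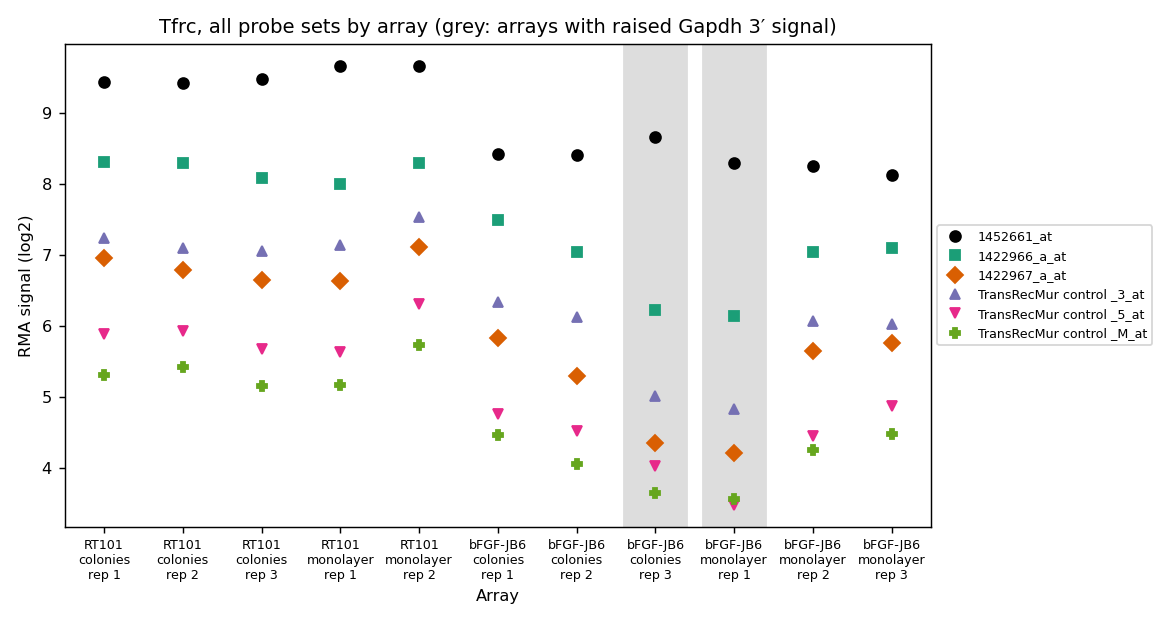
RMA signal (log2, vertical axis) of the 6 Tfrc probe sets on each of the 11 arrays (horizontal axis, rep = replicate); each symbol is 1 probe set and the grey bands mark the 2 arrays with raised Gapdh 3' signal. All 6 symbols sit higher on the RT101 arrays than on the bFGF-JB6 arrays, and 5 of them drop on the grey-banded arrays.

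Slc11a2 encodes the divalent metal transporter that carries iron out of endosomes. It is made as isoforms with different ends, and which of them each probe set reads was not determined here. The brightest probe set, 1452078_a_at, read 8.83, 8.71 and 8.32 in bFGF-JB6 colonies, against 8.26, 8.34 and 8.44 in bFGF-JB6 monolayer. In RT101 it read 8.26, 8.21 and 8.12 in colonies and 8.10 and 8.14 in monolayer, so the colony groups overlapped with the monolayer in both lines, at differences of 0.27 (SE 0.12) in bFGF-JB6 and 0.08 (SE 0.13) in RT101. The other probe sets showed no overlap in bFGF-JB6: 1426441_at was 0.76 (SE 0.11) higher in colonies and 1417584_at 0.67 (SE 0.09) higher. In RT101 colonies 1426441_at was 0.61 (SE 0.12) higher, at 6.65, 6.66 and 6.65 against 6.02 and 6.07 in RT101 monolayer, and 1417584_at was 0.12 (SE 0.10) higher.

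Between the lines the Slc11a2 probe sets disagreed. In monolayer, RT101 was below bFGF-JB6 by 1.32 (SE 0.12) on 1426441_at, whose values were 6.02 and 6.07 in RT101 and 7.45, 7.24 and 7.39 in bFGF-JB6. On 1417584_at RT101 monolayer was 0.34 (SE 0.10) above bFGF-JB6 monolayer, at 7.38 and 7.24 against 6.98, 7.04 and 6.88, and on 1452078_a_at it was 0.23 (SE 0.13) below. All 3 of these pairs of groups were free of overlap, so the direction depends on the probe set. In colonies RT101 minus bFGF-JB6 was -1.47 (SE 0.11) on 1426441_at and -0.42 (SE 0.12) on 1452078_a_at, both without overlap, and -0.21 (SE 0.09) on 1417584_at, with overlap.

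Fth1, the ferritin heavy chain that oxidises and stores iron, was slightly higher in colonies of both lines. 1427021_s_at read 14.03, 14.06 and 13.98 in bFGF-JB6 colonies, against 13.72, 13.87 and 13.84 in bFGF-JB6 monolayer. It read 13.75, 13.78 and 13.83 in RT101 colonies, against 13.47 and 13.55 in RT101 monolayer. Neither pair overlapped, and the colony level was 1.16-fold higher in bFGF-JB6 (0.21, SE 0.08) and 1.21-fold higher in RT101 (0.28, SE 0.09). The second probe set, 1448771_a_at, gave 0.28 (SE 0.07) in bFGF-JB6 and 0.25 (SE 0.08) in RT101. On any array at most 17 probe sets lay above 1427021_s_at, near the top of the scale, where differences can be compressed. RT101 lay below bFGF-JB6 by 0.30 in monolayer and by 0.24 in colonies.

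Aco1 encodes iron regulatory protein 1, which is cytosolic aconitase when it carries an iron-sulphur cluster. Its 2 probe sets differed. 1456728_x_at, which may match other transcripts, read 8.31, 8.37 and 8.69 in RT101 colonies, against 8.97 and 8.81 in RT101 monolayer, a difference of -0.44 (SE 0.17) without overlap. In bFGF-JB6 it read 7.56, 7.78 and 7.94 in colonies, against 8.10, 8.26 and 7.66 in monolayer, with overlap and a difference of -0.25 (SE 0.15). 1423644_at was nearly level, at -0.08 (SE 0.09) in RT101 and -0.04 (SE 0.08) in bFGF-JB6. RT101 exceeded bFGF-JB6 on 1456728_x_at by 0.89 (SE 0.17) in monolayer and 0.70 (SE 0.15) in colonies, but on 1423644_at by only 0.14 and 0.09 (SE 0.09 and 0.08).

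Ireb2 encodes iron regulatory protein 2, which is degraded when iron is plentiful. Its single probe set, 1433527_at, read 6.99, 7.11 and 7.32 in bFGF-JB6 colonies, against 7.64, 7.40 and 7.33 in bFGF-JB6 monolayer. In RT101 it read 7.18, 7.09 and 7.14 in colonies, against 7.39 and 7.48 in monolayer. The difference was -0.31 (SE 0.105) in bFGF-JB6 and -0.30 (SE 0.12) in RT101, both without overlap. In bFGF-JB6 the groups nearly touched, the highest colony array at 7.324 and the lowest monolayer array at 7.326. The lines themselves lay together, RT101 minus bFGF-JB6 being -0.02 (SE 0.12) in monolayer and -0.01 (SE 0.105) in colonies.

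**Figure D3:**
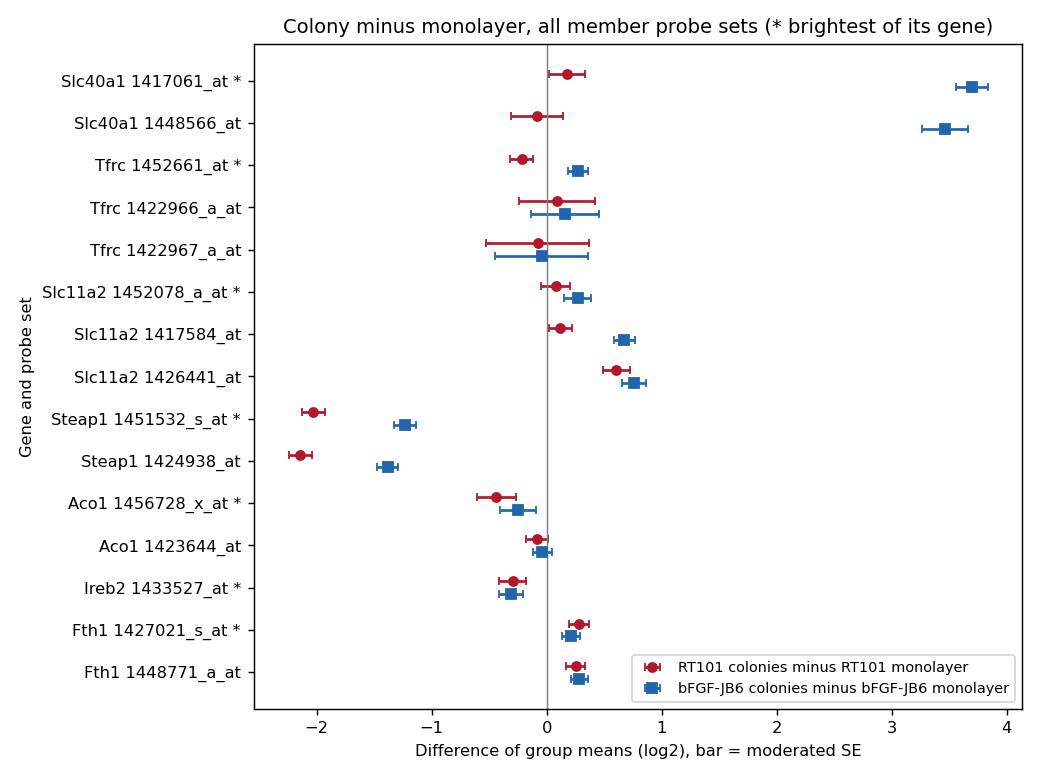
Difference of group means, colonies minus monolayer (log2, horizontal axis), for the 15 probe sets of the 7 genes that are not controls (vertical axis; an asterisk marks the brightest of a gene); bars are moderated SE, RT101 as red circles and bFGF-JB6 as blue squares. Both Slc40a1 probe sets lie at 3.47 and 3.70 in bFGF-JB6 and near 0 in RT101, and both Steap1 probe sets lie below -1 in both lines.

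Groups did not overlap for 5 of the 7 genes in bFGF-JB6 colonies against monolayer (Slc40a1, Tfrc and Fth1 higher, Steap1 and Ireb2 lower) and for 5 in RT101 (Fth1 higher, Tfrc, Steap1, Aco1 and Ireb2 lower). Among all 12393 genes the share without overlap was 37.8% in bFGF-JB6, 18.7% higher and 19.1% lower, and 56.1% in RT101, 27.9% higher and 28.2% lower. Between RT101 and bFGF-JB6, Tfrc, Steap1 and Aco1 were higher and Slc40a1, Slc11a2 and Fth1 lower without overlap in both conditions, 6 of 7 genes. All these counts use each gene's brightest probe set. Between monolayers, Slc40a1 overlapped on 1448566_at (-0.23, SE 0.23), with every monolayer array in the lower quartile. There Aco1 also overlapped on 1423644_at (0.14), and Slc11a2 was higher in RT101 on 1417584_at (0.34). The background was 61.1% in monolayer, 33.4% higher and 27.7% lower, and 50.4% in colonies, 26.1% higher and 24.3% lower. Since the genes were picked with these arrays in view, nothing is read from these counts. The median difference of the 7 genes was 0.21 in bFGF-JB6 colonies, against 0.03 over all genes, and -0.22 in RT101 colonies, against -0.01 over all genes.

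A wider set of 90 iron genes, in 6 lists by role, was tested with limma over all 12393 genes at an adjusted p under 0.05, the 7 genes above left out. Of the 69 measured, 28 passed in bFGF-JB6 colonies, 19 up and 9 down, or 40.6% against a background of 29.4%. In RT101 colonies 30 passed, 21 up and 9 down, or 43.5% against 32.4%. The change differed between the lines for 23 (33.3% against 27.7%). RT101 differed from bFGF-JB6 for 38 genes in monolayer (15 up, 23 down; 55.1% against 44.4% of all genes, 23.2% up and 21.2% down) and for 40 in colonies (17 up, 23 down; 58.0% against 43.3%, 22.7% up and 20.7% down). Their median difference was 0.03 in bFGF-JB6 colonies and 0.04 in RT101 colonies, against 0.03 and -0.01 over all genes. These lists, like the 7 genes, were chosen with earlier results of these data known. Nothing is therefore read from their counts, here or below.

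A list of 8 genes of iron and haem export and of its control was also counted. Of these, 5 rose in bFGF-JB6 colonies (Hamp, Cp, Flvcr1, Neo1 and Abcg2), against 14.1% of all genes rising. In RT101 colonies 2 rose (Cp and Neo1), against 17.0%. The list's medians were 0.39 and 0.10. Hamp and Neo1 are on it as genes of control and not as exporters. Abcg2, which exports haem and other compounds, rose by 1.08 (SE 0.16, adjusted p = 0.000151) in bFGF-JB6 colonies, and the haem exporter gene Flvcr1 by 0.90 (SE 0.12, adjusted p = 7.59e-05). Their values in RT101 colonies were 0.19 (adjusted p = 0.502) and -0.19 (adjusted p = 0.328). Abcg2 read 3.19 to 3.65 in RT101 colonies and 3.18 to 3.33 in RT101 monolayer, in the lower quartile, where folds are compressed. Neo1, neogenin, rose by 0.65 (adjusted p = 0.000419) in bFGF-JB6 and 0.74 (adjusted p = 0.000281) in RT101. The ferroxidase gene Cp rose by 0.54 (adjusted p = 0.00521) in bFGF-JB6 and 1.16 (adjusted p = 2.56e-05) in RT101, at levels of 5.92 to 6.08 in RT101 colonies and 9.63 to 10.03 in bFGF-JB6 colonies. Heph, a related ferroxidase gene, did not pass in either line (adjusted p of 0.357 in bFGF-JB6 and 0.156 in RT101). It read 2.04 to 2.44 over all arrays, in the lower quartile. Hamp, encoding the liver hormone hepcidin, was called at 0.23 (adjusted p = 0.0447) in bFGF-JB6 colonies. Leaving out any of 10 of the 11 arrays ended that call, at values of 0.19 to 0.26. The exception was bFGF-JB6 colonies replicate 1. The Hamp call was also lost with the mean of its probe sets (0.187), with cyclic loess (0.172) and with other settings.

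Among 18 uptake genes, 6 rose and 2 fell in bFGF-JB6 colonies (15.3% of all genes fell), and 7 rose and 1 fell in RT101 colonies (15.4%), with medians of 0.09 and 0.16. Scara5, a scavenger receptor that takes up ferritin, read 9.82, 9.67 and 9.60 in bFGF-JB6 colonies against 6.88, 6.78 and 6.82 in bFGF-JB6 monolayer, a rise of 2.87 (SE 0.09, adjusted p = 6.97e-11). With the mean of its 2 probe sets the rise was 1.42, so the other probe set showed no comparable rise. RT101 arrays read 4.24 to 4.47 in colonies and 3.98 to 4.00 in monolayer; the rise of 0.35 there (adjusted p = 0.0153) lost its call without RT101 monolayer replicate 1 (0.34) or replicate 2 (0.36) or RT101 colonies replicate 2 (0.28), and with the mean of the probe sets (0.07). Hfe, a partner of the transferrin receptors, rose by 1.24 (SE 0.13, adjusted p = 7.02e-06) in bFGF-JB6 colonies and was at -0.33 (adjusted p = 0.0998) in RT101. Its rise was 0.79 with the mean of its probe sets. Hfe read 3.54 to 3.71 in RT101 colonies, in the lower quartile, and 3.77 to 4.10 in RT101 monolayer.

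Lcn2, lipocalin 2, which binds iron-carrying siderophores, read 9.79, 9.71 and 9.75 in RT101 colonies against 5.89 and 6.26 in RT101 monolayer. That is a rise of 3.68 (SE 0.13, adjusted p = 2.59e-10). In bFGF-JB6 it stood high in both, at 11.14 to 11.50 in colonies and 11.66 to 11.85 in monolayer; the fall of 0.39 (adjusted p = 0.0208) lost its call without bFGF-JB6 monolayer replicate 2 (-0.34), replicate 3 (-0.39) or bFGF-JB6 colonies replicate 3 (-0.28). Slc46a1, a haem and folate transporter, rose by 1.27 (adjusted p = 1.17e-06) in RT101 and 0.54 (adjusted p = 0.0011) in bFGF-JB6. Steap3, the ferrireductase of erythroid endosomes and a relative of Steap1, was called up in both lines, by 1.06 (SE 0.31, adjusted p = 0.0185) in bFGF-JB6 and 1.07 (SE 0.34, adjusted p = 0.0283) in RT101. These calls were fragile. The first was lost without bFGF-JB6 monolayer replicate 1 (0.96), bFGF-JB6 colonies replicate 1 (0.997) or replicate 2 (0.648). The second was lost without any of the 5 RT101 arrays (0.87 to 1.27). The first was also lost with the mean of the probe sets (1.035), and both with another variance model. Steap4, another relative, the ferric reductase gene Cybrd1 and the zinc and iron transporter genes Slc39a14 and Slc39a8 did not pass in either colony comparison.

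**Figure D4:**
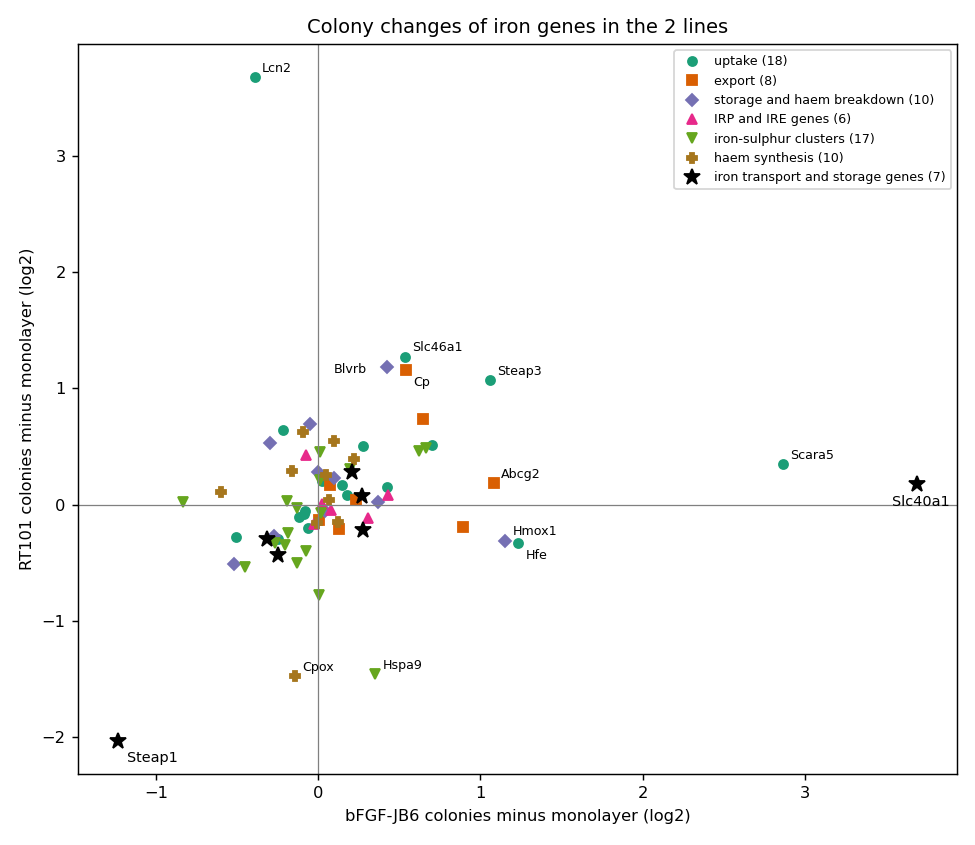
Colony minus monolayer difference (log2) in bFGF-JB6 (horizontal axis) and in RT101 (vertical axis) of the 69 wider iron genes, with colours and symbols by list and the number of genes in each, and the 7 iron transport and storage genes as stars; genes past 1 in either direction are named. Slc40a1 and Scara5 lie far to the right (3.70 and 2.87) near the horizontal line, Lcn2 high up (3.68) near the vertical one, and Steap1 alone at the lower left.

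Among 10 genes of iron storage and haem breakdown, 3 rose and 3 fell in bFGF-JB6 colonies, or 60.0% against 29.4% of all genes called. In RT101 colonies 3 rose and 1 fell, or 40.0% against 32.4%. The medians were 0.02 and 0.13. Hmox1, the inducible haem oxygenase, rose by 1.16 (SE 0.12, adjusted p = 1.03e-05) in bFGF-JB6 colonies, at 11.30, 11.33 and 10.83 against 9.83, 10.04 and 10.12 in bFGF-JB6 monolayer. In RT101 colonies it was at -0.31 (adjusted p = 0.115). Ncoa4, the cargo receptor that delivers ferritin to lysosomes, fell by 0.52 (adjusted p = 0.0013) in bFGF-JB6 and by 0.51 (adjusted p = 0.00277) in RT101. The biliverdin reductase gene Blvrb rose by 1.18 (adjusted p = 1.31e-05) in RT101 colonies, and its rise of 0.43 (adjusted p = 0.0155) in bFGF-JB6 lost its call without bFGF-JB6 colonies replicate 1 (0.35) or replicate 2 (0.36). Hmox2, the constitutive haem oxygenase, rose by 0.69 (adjusted p = 5.47e-05) in RT101 colonies and was at -0.05 (adjusted p = 0.731) in bFGF-JB6; the 2 changes differed by 0.74 (adjusted p = 0.000514).

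Among 6 other genes tied to the iron regulatory proteins by a responsive element or by protein turnover, 2 rose in bFGF-JB6 colonies and 1 in RT101 colonies (medians 0.05 and -0.02). That is 33.3% against 29.4% of all genes called in bFGF-JB6 colonies, and 16.7% against 32.4% in RT101 colonies. Among 17 genes of iron-sulphur cluster assembly and mitochondrial iron import, 3 rose and 3 fell in bFGF-JB6 colonies and 4 rose and 6 fell in RT101 colonies (medians -0.08 and -0.07). The shares called were 35.3% in bFGF-JB6 colonies, near the 29.4% of all genes, and 58.8% against 32.4% in RT101 colonies. The scaffold gene Iscu rose by 0.66 (adjusted p = 4.82e-05) in bFGF-JB6 and 0.49 (adjusted p = 0.00115) in RT101, and its co-chaperone gene Hscb by 0.62 (adjusted p = 5.6e-05) in bFGF-JB6 and 0.46 (adjusted p = 0.00124) in RT101. The mitochondrial iron importer gene Slc25a37 fell by 0.78 (adjusted p = 3.19e-05) in RT101 and stood at 0.00 (adjusted p = 0.979) in bFGF-JB6. The ferredoxin gene Fdx1 fell by 0.83 (adjusted p = 3.63e-06) in bFGF-JB6 and was at 0.02 (adjusted p = 0.89) in RT101.

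Among 10 haem synthesis genes, 1 fell in bFGF-JB6 colonies and 4 rose and 1 fell in RT101 colonies (medians 0.02 and 0.18). That is 10.0% against 29.4% of all genes called in bFGF-JB6 colonies, and 50.0% against 32.4% in RT101 colonies. Alad, an early enzyme gene of the path, fell by 0.60 (adjusted p = 0.000135) in bFGF-JB6 colonies. In RT101 colonies the final enzyme gene Fech rose by 0.55 (adjusted p = 0.000283) and Urod by 0.62 (adjusted p = 0.00069), while Cpox, which acts between them, fell by 1.47 (adjusted p = 5.61e-05). Cpox read 7.12, 7.07 and 7.11 in RT101 colonies against 8.51 and 8.64 in RT101 monolayer.

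Among 9 regulators of iron and oxidative stress genes, 3 rose and 1 fell in bFGF-JB6 colonies and 2 rose and 2 fell in RT101 colonies (medians -0.01 and -0.02). That is 44.4% in each line, against 29.4% of all genes called in bFGF-JB6 colonies and 32.4% in RT101 colonies. Myc, a transcription factor whose targets include iron genes, fell in both: by 1.06 (adjusted p = 2.68e-05) in bFGF-JB6 and by 2.09 (adjusted p = 1.08e-07) in RT101. Bach1, a repressor of Hmox1, rose by 0.74 (adjusted p = 0.000771) in bFGF-JB6, but with the mean of its probe sets the value was 0.15. The metal-responsive factor gene Mtf1 did not pass in either. Of 13 cell division genes, 11 fell in bFGF-JB6 colonies (84.6%, against 15.3% of all genes falling, median -0.96). In RT101 colonies 4 rose and 2 fell (46.2%, against 32.4% of all genes called, median 0.02). Their summed level was 13.07 to 13.14 in bFGF-JB6 colonies against 13.57 to 13.61 in bFGF-JB6 monolayer, and 13.74 to 13.77 in RT101 colonies against 13.72 to 13.73 in RT101 monolayer; their part in the iron gene differences was not tested. Of the 10 fibroblast markers, 3 rose and 2 fell in bFGF-JB6 colonies (50.0% against 29.4% of all genes) and 5 rose in RT101 colonies (against 17.0% of all genes rising). Of the 11 keratinocyte markers 2 rose in bFGF-JB6 colonies, or 18.2% against 14.1% of all genes rising.

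Between the lines, several wider iron genes were lower in RT101 in both conditions, and others were higher. Of the 69, 23 were lower and 15 higher in monolayer, and 23 lower and 17 higher in colonies. RT101 minus bFGF-JB6 was -2.84 in monolayer (adjusted p = 5.93e-11) and -5.36 in colonies (adjusted p = 2.87e-14) for Scara5. For Cp it was -4.45 in monolayer (adjusted p = 2.32e-11) and -3.84 in colonies (adjusted p = 3.38e-11). Slc11a1 encodes a phagosomal metal transporter related to Slc11a2. Its difference was -2.73 in monolayer (adjusted p = 2.83e-09) and -1.87 in colonies (adjusted p = 3.94e-08). Lcn2 stood at -5.68 in monolayer (adjusted p = 7.44e-13) and at -1.61 in colonies (adjusted p = 7.45e-08). Higher in RT101 in both were, for example, Hif1a, at 1.56 in monolayer (adjusted p = 2.02e-08) and 1.21 in colonies (adjusted p = 8.13e-08). Cpox was another, at 1.92 in monolayer (adjusted p = 2.44e-06) and 0.59 in colonies (adjusted p = 0.015).

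The genes whose pattern over the 11 arrays was most like a given gene's were sought among 2867 genes whose group means spanned at least 1, by Pearson's r, as a description of arrays that share 4 groups. Slc40a1 was followed most closely by Aspa (r = 0.997), Ctsk (0.994) and Gsta3 (0.994), Tfrc by Prkd1 (0.996), Mbd1 (0.994) and Abhd14a (0.993), Steap1 by Dis3 (0.992), Mybbp1a (0.992) and Rras2 (0.99), and Aco1 by Upf2 (0.968), Ube2e1 (0.968) and Casp8ap2 (0.961). Aspa, for example, averaged 4.37 in RT101 colonies, 4.14 in RT101 monolayer, 7.95 in bFGF-JB6 colonies and 4.85 in bFGF-JB6 monolayer.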

How the data were processed

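RNA from 11 samples of JB6 cells was read on 1 Affymetrix array each, and groups and replicate numbers came from titles and source names. The deposited log2 signals were made by the authors with RMA, according to the submitters' processing notes, with no version given. RMA corrects background, equalises the arrays' distributions and summarises the probes of a probe set; it calls no gene present or absent. The values were used unchanged. Precision depends on how many arrays there are, since no counts lie behind the signals.

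Of 22690 probe sets, 64 were controls; in the platform annotation 20380 of the rest named 1 gene, 691 several and 1555 none. Each of 12393 genes was read from its brightest single-gene probe set (4956 had more than 1). limma 3.58.1 in R 4.3.3 was fitted to all 11 arrays with group as the only term and eBayes (7 residual and 6.12 prior degrees of freedom); p-values were adjusted by Benjamini-Hochberg over all genes. A second fit over 22626 probe sets gave the SE of the other probe sets. Whether replicates are separate cultures is not in the labels, so p-values measure only the spread between these arrays, which may be technical.

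The 8 genes and all lists were chosen with earlier results of these data known. Named were the 8 genes with all their probe sets, a fixed set of iron genes where measured, up to 3 further called genes per list and colony comparison with the largest change, and a few regulators and markers; of the fixed set, Ftl1, Fbxl5 and Trf were not analysed here. Some genes that this rule allows appear only in counts. RefSeq promoters and neighbours are of build GRCm38.p6. The fit was tested on simulated data. Alternatives were a gene's mean over its probe sets, separate probe sets, a filter on low genes, median centring, cyclic loess, another variance model, only the groups compared, a replicate block, leaving out 2 arrays with raised Gapdh signal, and leaving out each array. Plots used matplotlib 3.10.9 in Python 3.11.15.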

Additional observations from a re-analysis of the deposited data

Results flagged for a closer look

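Tfrc colony arrays lay on opposite sides of the monolayer arrays in the 2 lines on 1452661_at, below in RT101 and above in bFGF-JB6, a difference of colony changes of -0.492 that was not tested; with the mean of its probe sets it was -0.20.

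For 21 named genes of the wider set the colony change differed between the lines, RT101 minus bFGF-JB6, by limma's test of the difference itself (adjusted p under 0.05). In uptake it was 4.07 for Lcn2, 0.86 for Slc11a1, 0.74 for Slc46a1, -2.52 for Scara5 and -1.57 for Hfe. With the mean of probe sets Scara5 was at -1.35 and Hfe at -0.87, and both were still called. Hfe lay in the lower quartile on the RT101 colony arrays. In export it was -1.09 for Flvcr1, -0.90 for Abcg2, which lay in the lower quartile on every RT101 array, and 0.62 for Cp. Of the other Cp probe sets, 2 were called with the opposite sign, so the direction for Cp depends on the probe set. Abcg2 lost its call without RT101 monolayer replicate 1, at -0.82. Cp lost its call without bFGF-JB6 monolayer replicate 1, bFGF-JB6 colonies replicate 1 or 2, RT101 monolayer replicate 1 or 2, or RT101 colonies replicate 1, at 0.48 to 0.64, and also with arrays centred on their median (0.575) and with the mean of its 7 probe sets (0.12).

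In storage and haem breakdown the difference was -1.46 for Hmox1, 0.75 for Blvrb, 0.83 for Blvra and 0.74 for Hmox2. Among genes tied to the iron regulatory proteins it was 0.50 for Skp1 and -0.42 for Cdc42bpa, whose call was lost without any of 9 single arrays (-0.45 to -0.35); the exceptions were bFGF-JB6 monolayer replicate 2 and bFGF-JB6 colonies replicate 3. The Cdc42bpa call was also lost with all probe sets tested separately (-0.423, adjusted p = 0.0598) and with cyclic loess (-0.411, adjusted p = 0.0548). In cluster assembly and mitochondrial import it was 0.85 for Fdx1, -1.81 for Hspa9 and -0.78 for Slc25a37. In haem synthesis it was 0.71 for Alad, 0.71 for Urod, 0.46 for Fech and -1.33 for Cpox, and Fech lost its call with the mean of its probe sets (0.32).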

How the results depend on the processing

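Counts of wider iron genes called stayed within 1.5 times under every alternative run. Leaving out 1 array gave 22 to 27 for bFGF-JB6 colonies, 23 to 35 for RT101 colonies, 33 to 40 between monolayers, 36 to 40 between colonies and 19 to 23 for the difference of colony changes; leaving out an RT101 monolayer array leaves 1, assumed to vary like the other groups. Other settings gave 23 to 28, 28 to 36, 34 to 41, 34 to 41 and 22 to 26 in the same order. With 1 value per gene, from its brightest probe set or the mean, no difference of the 7 iron transport and storage genes with groups apart changed sign; on single probe sets Slc11a2 between monolayers was -0.23 on 1452078_a_at and 0.34 on 1417584_at, both without overlap. Those of the colony comparisons that moved by more than the spread between replicates were, with each gene's mean over its probe sets, Tfrc 0.131 and Slc11a2 0.568 in bFGF-JB6, and Tfrc -0.069, Slc11a2 0.268, Steap1 -2.085 and Aco1 -0.259 in RT101; with arrays centred on their median, Tfrc -0.274, Slc11a2 0.021, Steap1 -2.084, Ireb2 -0.352 and Fth1 0.222 in RT101; and with cyclic loess Fth1 0.19 in RT101. Between lines, the mean of probe sets brought Aco1 to 0.51, Slc11a2 to -0.402 and Slc40a1 to -0.48 in monolayer, and Aco1 to 0.40, Slc11a2 to -0.702, Tfrc to 1.30, Slc40a1 to -4.01 and Fth1 to -0.297 in colonies; cyclic loess brought Fth1 to -0.227 in monolayer and -0.306 in colonies. In the difference of colony changes, Tfrc was -0.20 with the mean of probe sets, Fth1 -0.078 with cyclic loess against 0.066 as reported, and Slc11a2 -0.339 without bFGF-JB6 colonies replicate 3. Slc11a2 in bFGF-JB6 colonies was 0.17 without bFGF-JB6 colonies replicate 1 and 0.42 without replicate 3. The cause was not tested. For named wider genes 1471 values kept call and direction, 92 lost the call and 41 gained it; of those that passed neither as reported nor under the alternative, 995 kept their sign and 80 turned it.

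Deviations of same-numbered colony and monolayer arrays correlated at 0.022, 0.076 and -0.245 in bFGF-JB6 and at -0.253 and -0.15 in RT101. The description's letters gave the same values in bFGF-JB6 but paired the RT101 arrays differently, at 0.15 for B and -0.134 for C. Each RT101 colony array gave the same value with opposite signs against the RT101 monolayer arrays. Deviations in groups this small are tied to each other, so whether the samples were paired cannot be decided from these values. With the number as a replicate block 27, 29, 37, 40 and 23 genes were called, and with the description's letters as the block 27, 28, 38, 39 and 22, in the order above. Named wider genes that did not pass with the number as a replicate block were Hamp in bFGF-JB6 colonies (0.234, adjusted p = 0.0717) and Cdc42bpa in the difference of colony changes (-0.386, adjusted p = 0.0715). With the letter as the replicate block they were these again (0.234, adjusted p = 0.0589, and -0.415, adjusted p = 0.0558), Cp in the difference of colony changes (0.585, adjusted p = 0.051), and Steap3 (1.07, adjusted p = 0.0504) and Lrp1 (0.45, adjusted p = 0.0539) in RT101 colonies.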
